A study of Mus musculus with 6 samples.

Results

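Chemokine receptors are 7-transmembrane, G-protein-coupled receptors that steer leukocytes along gradients of chemokines, which are small secreted proteins. The genes Ccr1, Ccr2, Ccr3, Ccr7, Ccr8, Cxcr3, Cxcr4, Cxcr6 and Cx3cr1 were chosen by name, and all 9 were found among the 24346 gene symbols of each sample. They were measured by RNA-sequencing of endothelial cells (ECs) from MC38 tumors, a mouse colon carcinoma line grown under the skin of C57BL/6 mice. The cells were sorted as CD31 positive and CD45 negative, so that the gate should keep ECs and remove leukocytes. The 2 groups were 3 libraries from wild-type (WT) mice and 3 from Apelin-knockout (Apelin-KO) mice on the same background. Mice were 8 to 10 weeks old, and tumor ECs were compared at day 19. The labels of both groups also name saline, which the study's text does not describe for this experiment. The study's methods name no driver that limits the knockout to a cell type. Whether each library came from 1 mouse is not given in the sources used here, so the p-values measure the spread between these libraries.

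Most chemokine receptors couple to inhibitory G proteins, and ligand binding leads to directed movement, integrin activation and receptor uptake. CCR1, CCR2 and CX3CR1 are receptors of monocytes and macrophages, CCR3 of eosinophils, and CCR7 guides T cells and dendritic cells to lymph nodes. CCR8, CXCR3 and CXCR6 are found on activated or tissue T cells. CXCR4, the receptor of CXCL12, is found on leukocytes and also on ECs, where it is known from vessel sprouting and from the tip cells of growing vessels. The question of the experiment was how Apelin in tumor vessels bears on T-cell entry, for which the ligands and receptors of chemokines are candidate genes.

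Values are FPKM, a read level scaled to transcript length and to the mapped reads of the library, as deposited, which can be compared between genes because they are per length. Apln, the gene removed, averaged 457 ± 40.7 FPKM in the WT libraries and 17.3 ± 7.20 FPKM in those of the knockout (SD, n = 3 each), and the groups did not overlap. Depth was estimated from the steps of low FPKM and lay between 8950000 and 10200000 reads per sample. The endothelial identity of the cells was checked with 10 markers, all above 0 in all samples, whose FPKM summed to between 3369 and 4014 in WT ECs and between 4110 and 4313 in Apelin-KO ECs. All 12 macrophage and monocyte markers were also above 0 in all samples, with sums of 239 to 867 FPKM in WT ECs and 109 to 286 FPKM in Apelin-KO ECs. In bulk samples, fewer cells of a type and less RNA per cell cannot be told apart.

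Cxcr4 stood far above the other receptors. Its mean over the 6 samples was 56.1 FPKM, followed by Cx3cr1 at 4.54 FPKM, Ccr1 at 2.62 FPKM and Ccr2 at 2.04 FPKM. Cxcr6, Cxcr3, Ccr7 and Ccr8 followed at 0.309, 0.295, 0.248 and 0.114 FPKM, and Ccr3 was listed at 0 in each of the 6 samples. Cxcr4 lay above Cx3cr1 in 6 of 6 samples, and Cx3cr1 above Ccr1 in 6 of 6. Ccr1 lay above Ccr2 in 4 of 6 samples, so the order of these neighbours is not set by the data. Cxcr6 lay above Cxcr3 in 3 of 6 samples and Cxcr3 above Ccr7 in 4 of 6, and the levels of these receptors were within each other's spread. Cxcr4 made up between 63.5% and 95% of the summed FPKM of the 9 receptors in a sample, with the lowest share in WT 2 and the highest in Apelin-KO 1. It ranked between 1223 and 2186 among the 14089 to 14621 genes above 0 in a sample, and its level exceeded that of Cx3cr1 by 3.71 times in WT 2 and by 68.9 times in Apelin-KO 1.

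**Figure D1:**
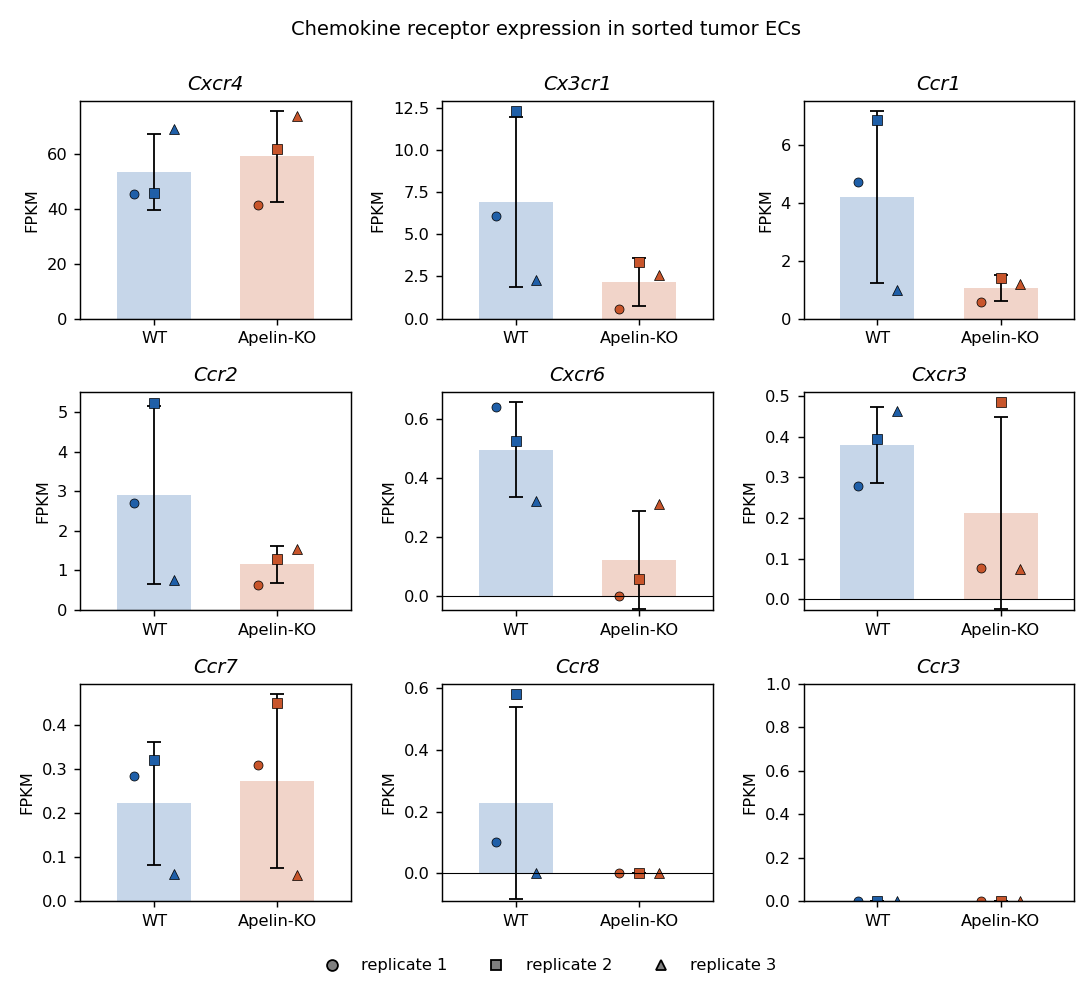
FPKM of the 9 chemokine receptors in sorted tumor ECs, 1 panel per gene with its own linear axis. Points are samples with the replicate number as the symbol, bars are group means and whiskers are SD (n = 3). Cxcr4 sits between 41.3 and 73.8 FPKM in the 6 samples, the WT values of Ccr1, Ccr2 and Cx3cr1 spread widely with WT 2 on top, and Ccr3 is listed at 0 throughout.

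Of the 9 receptors, 6 lie on chromosome 9 of the mouse genome (GRCm38, GENCODE annotation). Cxcr6 (chromosome 9 from 123806475 to 123811760, plus strand), Ccr1 (123962124 to 123968692, minus strand), Ccr3 (124021972 to 124031689, plus strand) and Ccr2 (124101950 to 124113557, plus strand) stand within 307 kilobases. Cx3cr1 (119901616 to 120069879, minus strand) and Ccr8 (120092114 to 120094906, plus strand) lie elsewhere on the same chromosome. Cxcr4 is on chromosome 1 from 128588199 to 128592293 on the minus strand, Ccr7 on chromosome 11 from 99144196 to 99155077 on the minus strand and Cxcr3 on chromosome X from 101731535 to 101734269 on the minus strand. Within this cluster the levels were unlike, since Ccr3 was listed at 0 in all samples while Ccr1 and Ccr2, which lie to either side of it, were above 0. Chemokine receptors arose by gene duplication, so the transcripts were searched for stretches as long as a 75-base read that occur in another gene. Ccr2 shared 78 of 6734 such stretches with transcripts of 1 other gene, and Cx3cr1 shared 5 of 4428, all antisense. The other 7 receptors shared none, so that nearly all exact reads of the receptors point to 1 gene.

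The promoters of Ccr1 and Cxcr4 are shown because Ccr1 was the only tested receptor to pass an unadjusted p-value of 0.05 and Cxcr4 had the highest FPKM. Each is the 250 bases before the RefSeq start of the gene on GRCm38.p6, 5′ to 3′ on the gene's strand, and neither overlaps an annotated exon of its gene. Capitals mark matches, on both strands, to GAGGAA (the core of the site of PU.1, a myeloid transcription factor), GGGCGG (GC box) and to TATAAA, which marks the start of some genes.
Ccr1, chr9:123968693-123968942, minus strand: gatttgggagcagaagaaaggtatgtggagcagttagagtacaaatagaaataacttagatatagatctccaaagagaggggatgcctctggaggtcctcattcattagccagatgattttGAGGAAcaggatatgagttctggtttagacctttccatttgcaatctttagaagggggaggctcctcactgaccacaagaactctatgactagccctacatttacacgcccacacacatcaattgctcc
Cxcr4, chr1:128592300-128592549, minus strand: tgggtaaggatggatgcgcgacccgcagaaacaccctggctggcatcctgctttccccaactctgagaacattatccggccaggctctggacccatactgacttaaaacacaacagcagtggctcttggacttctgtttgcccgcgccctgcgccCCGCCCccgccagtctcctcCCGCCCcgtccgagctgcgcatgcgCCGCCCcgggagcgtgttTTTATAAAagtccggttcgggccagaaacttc
The Ccr1 promoter held 1 match to GAGGAA, which starts 129 bases before the gene, and no other match. The Cxcr4 promoter held 3 matches to the GC box and overlapping TATAAA matches on both strands that begin 32 bases before the start, and no match to GAGGAA. RefSeq promoters were found for 8 of the 9 receptors, all except Ccr7. GAGGAA was present in 3 of these 8, those of Ccr1, Ccr3 and Cxcr3 and not those of Ccr2 and Cx3cr1, against 23.3% of 32851 promoters of the same length, the GC box in 1 of 8 against 32.7%, and TATAAA in 1 of 8 against 12.4%. The share of G and C was 61.2% in the Cxcr4 promoter and 43.6% in that of Ccr1, where the median of all promoters was 52.4%. The stretches of Ccr2, Ccr8, Cx3cr1, Cxcr3 and Cxcr6 overlap annotated exons of their gene, and that of Cx3cr1 lies inside the annotated gene. The matches describe the letters only, and a missing match says nothing about a factor.

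WT and Apelin-KO samples were compared gene by gene with limma on log2(FPKM + 1), for the 10964 genes whose mean reached 1 FPKM. Differences are given as WT minus Apelin-KO on that scale, which understates the change of genes with low FPKM. Of the 9 receptors, 4 entered the test, Ccr1, Ccr2, Cx3cr1 and Cxcr4, and each of these had a mean above 1 FPKM in Apelin-KO ECs too. None of the 4 had an adjusted p-value under 0.05 (limma with Benjamini-Hochberg adjustment over all genes tested), a threshold that 0.00912% of all genes passed. At an unadjusted p-value under 0.05, 1 of the 4 passed, where 9.42% of all genes did, or 5.17% counting only those higher in WT ECs. That receptor, Ccr1, was also the only one of the 4 that was more than 2-fold higher at this p-value, a mark reached by 0.766% of all genes. In none of the 4 were all WT values above all Apelin-KO values, as 6.61% of all genes did. The median log2 fold change of the 4 was 0.92, beside -0.01 over all genes tested.

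Ccr1, a receptor for CCL3, CCL5 and related inflammatory chemokines on monocytes and macrophages, was 4.70, 6.86 and 0.992 FPKM in WT 1, 2 and 3. In Apelin-KO 1, 2 and 3 it was 0.566, 1.40 and 1.20 FPKM. WT 1 and WT 2 were high, while WT 3 lay below Apelin-KO 2 and Apelin-KO 3, so that the groups overlapped. The estimated reads behind these values ran from 23.8 to 162 in the WT samples and from 13.8 to 37.7 in the Apelin-KO samples. The Apelin-KO mean was 25.3% of the WT mean, and the log2 fold change came to 1.14 (standard error 0.48, 95% interval 0.01 to 2.28). The unadjusted p-value was 0.0489 and the adjusted p-value 0.525 in limma, and the exact permutation test of the 6 samples gave p = 0.300 (two-sided, smallest possible 0.10). The range of the 3 WT values was wider than the difference between the group means.

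Cx3cr1, the receptor of the membrane-bound chemokine CX3CL1 and a marker of patrolling monocytes and some macrophages, was 6.10, 12.3 and 2.32 FPKM in WT 1, 2 and 3. The Apelin-KO samples 1, 2 and 3 gave 0.599, 3.36 and 2.58 FPKM. WT 2 was again the highest and Apelin-KO 1 the lowest, and WT 3 fell inside the range of the Apelin-KO samples. The log2 fold change came to 1.22 (standard error 0.56, 95% interval -0.10 to 2.53, adjusted p = 0.542 in limma), and the exact permutation p was 0.300. The unadjusted p-value of 0.0646 missed the threshold, and the interval holds both no difference and a difference of more than 4-fold.

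Ccr2, the receptor of CCL2 that brings monocytes from the blood into tissue, was 2.72, 5.25 and 0.770 FPKM in WT 1, 2 and 3. In Apelin-KO 1, 2 and 3 it was 0.628, 1.29 and 1.55 FPKM. The same WT sample was highest, and WT 3 lay below Apelin-KO 2 and Apelin-KO 3. The log2 fold change came to 0.70 (standard error 0.43, 95% interval -0.32 to 1.73, adjusted p = 0.640 in limma), and the exact permutation p was 0.300. The difference was within the spread of the WT samples.

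Cxcr4 was 45.3, 45.5 and 69.1 FPKM in WT 1, 2 and 3 and 41.3, 61.8 and 73.8 FPKM in Apelin-KO 1, 2 and 3. Both the lowest and the highest value were in Apelin-KO ECs, and the groups overlapped over the whole WT range. The means were 53.3 ± 13.7 FPKM for WT and 59.0 ± 16.5 FPKM for Apelin-KO (SD, n = 3 each). The log2 fold change came to -0.13 (standard error 0.25, 95% interval -0.73 to 0.46, adjusted p = 0.894 in limma), and the exact permutation p was 0.900. A difference of 2-fold in either direction lies outside this interval, while smaller ones are not excluded by it.

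The 5 receptors with a mean under 1 FPKM rest on few reads and were fitted only without the filter, over 16341 genes. Cxcr6, the receptor of CXCL16 on tissue-resident T cells and NKT cells, was 0.639, 0.524 and 0.322 FPKM in WT 1, 2 and 3, an estimated 11.0, 8.01 and 5.02 reads. In Apelin-KO ECs it was listed at 0 in Apelin-KO 1 and was 0.0570 and 0.312 FPKM in Apelin-KO 2 and 3, an estimated 0.993 and 5.02 reads. All WT values were thus above those of the Apelin-KO samples, but WT 3 and Apelin-KO 3 differed by less than the worth of 1 read. Among all genes of this fit 6.65% lay so, and Cxcr6 was the only receptor that did. Its log2 fold change came to 0.42 (standard error 0.14, unadjusted p = 0.0222, adjusted p = 0.510 in limma), and the exact permutation p was 0.10, the smallest possible. An unadjusted p-value under 0.05 was reached by 8.89% of all genes in this fit, and by none of the other 7 receptors fitted. None of the 8 had an adjusted p-value under 0.05, as 0.0122% of all genes did. None of Ccr1, Ccr2, Cx3cr1 and Cxcr4 was more than 2-fold higher at the unadjusted one, as 0.404% of all genes were. The other 4, with at most 0.639 FPKM, could not reach a 2-fold difference on log2(FPKM + 1), and on the FPKM scale the Apelin-KO mean of Cxcr6 was 24.8% of its WT mean.

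Cxcr3, the receptor of CXCL9, CXCL10 and CXCL11 on activated T cells, was 0.279, 0.394 and 0.464 FPKM in WT 1, 2 and 3 and 0.0760, 0.484 and 0.0750 FPKM in Apelin-KO 1, 2 and 3. The highest value was in Apelin-KO 2, and no sample held more than an estimated 7.56 reads. Ccr7 was 0.285, 0.321 and 0.0630 FPKM in the WT samples and 0.309, 0.451 and 0.0610 FPKM in the Apelin-KO samples, with 1 estimated read in WT 3 and Apelin-KO 3. Ccr8, the receptor of CCL8 in mice and a marker of tumor regulatory T cells, was 0.103 and 0.582 FPKM in WT 1 and WT 2 and was listed at 0 in the other 4 samples. They rest on roughly 1.02 and 5.08 estimated reads, so a difference in Ccr8 was not detectable at this depth. The adjusted p-values of Cxcr3, Ccr7 and Ccr8 were 0.718, 0.934 and 0.689 in limma without the filter, and the groups overlapped for each. For Ccr3, a receptor of eotaxins on eosinophils, no value above 0 was listed in any sample.

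**Figure D2:**
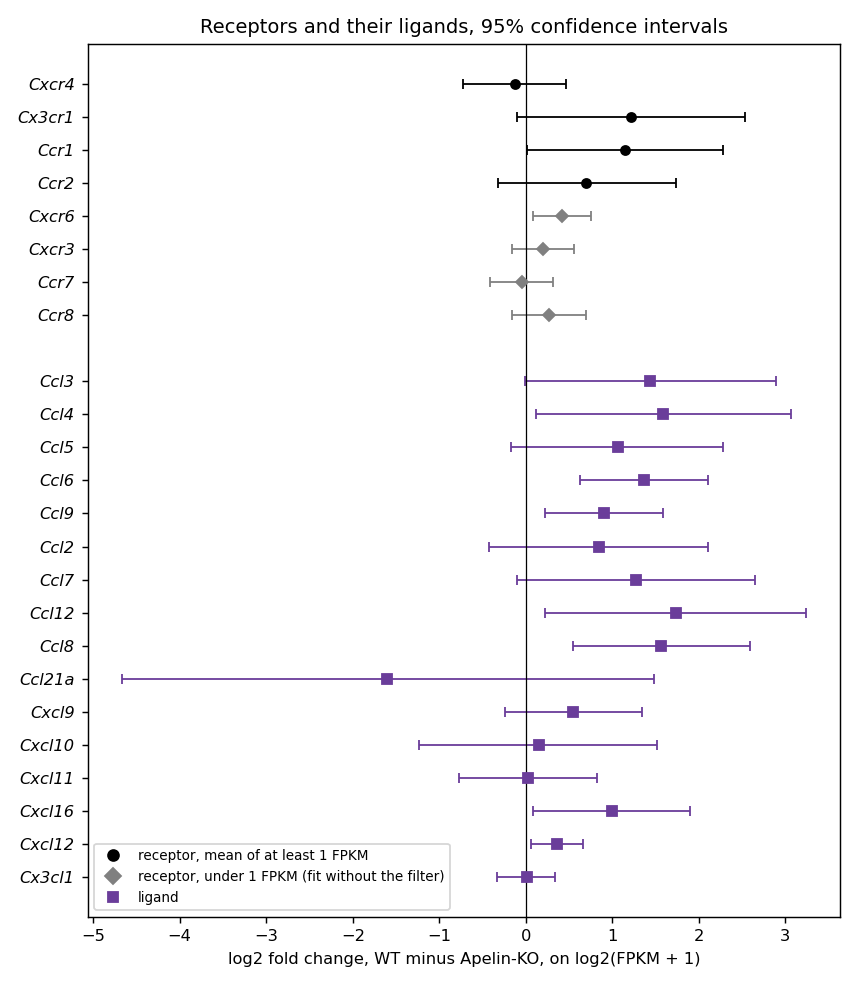
Log2 fold change (WT minus Apelin-KO) on log2(FPKM + 1) with 95% confidence intervals from limma, for 8 receptors and the 16 ligands that entered the test. Black circles are receptors with a mean of at least 1 FPKM, grey diamonds are receptors under it from the fit without the filter, and purple squares are ligands. The interval of Cxcr4 spans -0.73 to 0.46, that of Ccr1 begins at 0.01, and most ligand values lie to the right of 0.

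Ccr1, Ccr2 and Cx3cr1 ran together over the 6 samples, and Cxcr4 ran apart from them. Across the 6 samples, Pearson's r of log2(FPKM + 1) was 0.966 between Ccr1 and Ccr2, 0.952 between Ccr1 and Cx3cr1 and 0.949 between Ccr2 and Cx3cr1. With Cxcr4 it was -0.415 for Ccr1, -0.333 for Ccr2 and -0.155 for Cx3cr1. These are descriptions of 6 libraries that share their depth and cell makeup, and no test was made of them. In all 3 genes the order within WT ECs was WT 2, WT 1 and WT 3, and Apelin-KO 1 was the lowest of all 6 samples.

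The tested genes with the most similar pattern, 2 for each receptor over the 6 samples, were Slc16a1 (r = 0.998), a lactate and pyruvate transporter, and Tuba4a (r = 0.996), a tubulin, for Ccr1. For Ccr2 they were Plcg2 (r = 0.994), a phospholipase of immune receptor signalling, and Ms4a6c (r = 0.990), and for Cx3cr1 they were Plek (r = 0.997), a platelet and leukocyte protein, and C1qc (r = 0.997), a complement chain made by macrophages. C1qc was 75.1, 132 and 34.1 FPKM in WT 1, 2 and 3 and 14.5, 38.6 and 33.3 FPKM in Apelin-KO 1, 2 and 3, with the same highest and lowest sample as Cx3cr1. For Cxcr4 they were Wwtr1 (r = 0.993), a transcriptional co-activator of the Hippo pathway, and Wdr8 (r = 0.993). All were picked as the highest r among the tested genes outside the receptors. With 6 samples, a high r was thus set by the choice, and none was tested.

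**Figure D3:**
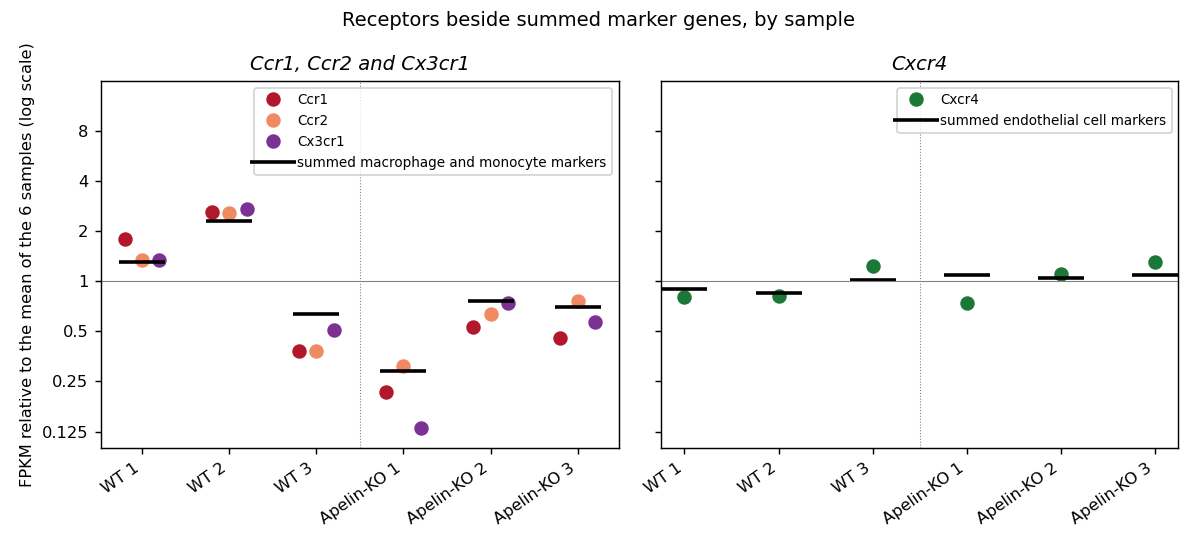
FPKM of each receptor in each sample divided by its own mean over the 6 samples, on a log scale. The left panel shows Ccr1, Ccr2 and Cx3cr1 (points) beside the sum of 12 macrophage and monocyte markers (black bars), and the right panel Cxcr4 beside the sum of 10 endothelial markers. The points of the left panel follow the bars, highest in WT 2 and lowest in Apelin-KO 1, whereas Cxcr4 stays within a narrow band.

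Markers of leukocytes, which the gate should remove, moved with Ccr1, Ccr2 and Cx3cr1. All 12 macrophage and monocyte markers entered the test and had a log2 fold change above 0, 6 of them at an unadjusted p-value under 0.05 and none at an adjusted one, with a median of 1.25. Over all genes tested, 5.17% were higher in WT at this p-value, and 5209 of 10964 had a log2 fold change above 0. The sum of their FPKM was 488 in WT 1, 867 in WT 2 and 239 in WT 3, against 109, 286 and 262 in Apelin-KO 1, 2 and 3. Csf1r, the receptor of the macrophage growth factor CSF1, was 21.6 FPKM on average in WT ECs and 8.27 FPKM in Apelin-KO ECs. Per unit of Csf1r, Ccr1 was 17.6 ± 5.96% (SD, n = 3) in WT ECs and 13.7 ± 2.56% (SD, n = 3) in Apelin-KO ECs, and Ccr2 was 12.1 ± 3.54% and 15.4 ± 4.51% (SD, n = 3 each). Cx3cr1 was 29.9 ± 5.46% of Csf1r in WT ECs and 24.5 ± 6.63% in Apelin-KO ECs (SD, n = 3 each), and none of the 3 ratios separated the groups. With the mean of the 10 pan-leukocyte markers as a covariate, the log2 fold changes of Ccr1, Ccr2 and Cx3cr1 were -0.14, -0.44 and -0.35. Their unadjusted p-values in that limma fit were 0.625, 0.163 and 0.101, so no difference was shown in either direction. Apln too lost its adjusted call in that fit (adjusted p = 0.350 in limma).

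Markers of lymphocytes and granulocytes were mostly under 1 FPKM. Of 14 T and NK cell markers, 2 reached a mean of 1 FPKM, Lck and Nkg7, and the sum was 12.4 to 16.4 FPKM in WT ECs and 8.65 to 11.5 FPKM in Apelin-KO ECs, of which Lck was the largest single value in every sample. For both genes all WT values were above all Apelin-KO values, as for 6.61% of all genes. Nkg7, a protein of cytotoxic granules, was at 3.60 and 0.994 FPKM on average. It passed an unadjusted p-value of 0.05 (adjusted p = 0.501 in limma), as 5.17% of all genes did with the higher level in WT. No B cell marker of 5 reached 1 FPKM. Siglech among 6 dendritic cell markers and Epx, an eosinophil enzyme, among the 7 granulocyte markers found were listed at 0 in all samples. The sum of the B cell markers was 0.207 to 0.813 FPKM in WT ECs and 0 to 0.519 FPKM in Apelin-KO ECs, and that of the granulocyte markers was 1.41 to 2.61 and 1.12 to 3.36 FPKM. The dendritic cell list, 189 to 235 FPKM in WT ECs and 238 to 295 FPKM in Apelin-KO ECs, was mostly Fscn1 and Zbtb46, which ECs express too, and of its 3 genes tested Fscn1 was lower in WT (unadjusted p = 0.0347, adjusted p = 0.515 in limma). The 10 pan-leukocyte markers summed to 182 to 307 FPKM in WT ECs and 162 to 218 FPKM in Apelin-KO ECs. Lcp1 was the largest of them and lay the other way, at 112 FPKM for WT and 127 FPKM for Apelin-KO on average, while Cd52 was at 48.9 and 17.1 FPKM. Of the 9 that entered the test, 4 were higher in WT at an unadjusted p-value under 0.05, where 5.17% of all genes were. The 6 fibroblast markers summed to 192 to 332 FPKM in WT ECs and 125 to 197 FPKM in Apelin-KO ECs, and the 7 pericyte markers to 567 to 738 and 642 to 744 FPKM. At the same p-value, and beside the same 5.17% of all genes, 4 of 5 fibroblast markers tested were higher in WT, and the groups did not overlap for Dcn, a matrix proteoglycan. Lower in WT at that p-value, as 4.25% of all genes were, were 3 of the 10 endothelial markers, all 10 of which had a log2 fold change below 0, and 1 of the 6 pericyte markers tested. The latter was Rgs5, a regulator of G-protein signalling, at 3.44 FPKM for WT and 7.78 FPKM for Apelin-KO on average (adjusted p = 0.214 in limma), without overlap of the groups. None of these passed at an adjusted p-value (limma). The part of these cells in the receptor values was not tested.

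Ligands of the receptors were measured in the same cells. Of 20 ligands, 16 entered the test, 15 had a log2 fold change above 0, and 7 passed an unadjusted p-value of 0.05 with the higher level in WT, where 5.17% of all genes did so. None was lower in WT at that p-value, as 4.25% of all genes were, none had an adjusted p-value under 0.05 (limma), and the median log2 fold change was 0.95. The 7 were Ccl4, Ccl6, Ccl9, Ccl12, Ccl8, Cxcl16 and Cxcl12. Without WT 2 the count was 2, without Apelin-KO 1 it was 3, and without WT 1 it was 4. The genes called in either direction fell too, from 1033 of 10964 to 536 of 10912, 983 of 10979 and 675 of 10912 in the same order. With the pan-leukocyte markers as a covariate 1 ligand was called, where 346 of 10964 genes were. With each gene's own variance 2 ligands were called, where 783 of 10964 genes were. All WT values were above all Apelin-KO values for 5 of the 16 ligands tested, as for 6.61% of all genes. These were Ccl3, Ccl6, Ccl9, Ccl8 and Cxcl12.

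Among the ligands of CCR1, Ccl3 was at 7.57 FPKM in WT ECs and 2.21 FPKM in Apelin-KO ECs on average. Its groups did not overlap, with a lowest WT value of 4.10 FPKM and a highest Apelin-KO value of 3.79 FPKM. The related Ccl4 was at 27.2 and 8.61 FPKM, and its groups overlapped. Ccl6 was 6.14 and 1.86 FPKM (log2 fold change 1.37, standard error 0.31, adjusted p = 0.501 in limma) and Ccl9 2.53 and 0.861 FPKM, and for both the groups did not overlap, all WT values being higher. Ccl5, shared by CCR1 and CCR3, was 17.7 and 7.90 FPKM, and the groups overlapped. Ccl2, the main ligand of CCR2, was 42.9, 62.4 and 26.8 FPKM in WT 1, 2 and 3 and 10.6, 22.0 and 49.8 FPKM in Apelin-KO 1, 2 and 3. Apelin-KO 3 lay above WT 1 and WT 3, and the log2 fold change of 0.84 had an adjusted p-value of 0.651. Ccl7 and Ccl12, which also bind CCR2, had log2 fold changes of 1.27 and 1.73, with adjusted p-values of 0.542 and 0.513.

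For CCR3, Ccl24 was listed at 0 in all samples and Ccl11 was above 0 in 3 samples with at most 1.58 FPKM. For CCR8, Ccl1 was listed at 0 in 4 samples and reached 0.659 FPKM in WT 1. Ccl8 was 26.1 FPKM for WT and 7.68 FPKM for Apelin-KO on average, and the log2 fold change came to 1.56 (standard error 0.43, adjusted p = 0.501 in limma), in cells in which Ccr8 did not pass 0.582 FPKM. With the pan-leukocyte markers as a covariate it was 0.79 and the unadjusted call was lost (adjusted p = 0.999 in limma). The ligands of CCR7 were low apart from 1 library. Ccl21a was 39.1 FPKM in Apelin-KO 2 and at most 0.484 FPKM in the other 5 samples, Ccl19 was above 0 in WT 3 alone, and without Apelin-KO 2 the mean of Ccl21a fell under the filter.

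The ligands of CXCR3 did not separate the groups. Cxcl11 was low, at 2.74 and 2.87 FPKM in WT and Apelin-KO ECs on average. Cxcl9 was 67.0, 99.1 and 105 FPKM in WT 1, 2 and 3 and 42.6, 101 and 50.7 FPKM in Apelin-KO 1, 2 and 3. Cxcl10 was 175, 229 and 229 FPKM in WT 1, 2 and 3 and 77.4, 182 and 477 FPKM in Apelin-KO 1, 2 and 3. Cxcl9 and Cxcl10, both interferon-induced, exceeded Cxcr3 itself by far in every sample, and the highest Cxcl10 value was in Apelin-KO 3. Cxcl16, the ligand of CXCR6, was 15.3 FPKM for WT and 6.86 FPKM for Apelin-KO on average. Its log2 fold change came to 0.99 (standard error 0.38, adjusted p = 0.515 in limma). The unadjusted call of Cxcl16 was lost when WT 1, WT 2, Apelin-KO 1 or Apelin-KO 3 was left out. With the pan-leukocyte markers as a covariate its log2 fold change was -0.07 (unadjusted p = 0.672 in limma).

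Cxcl12, the ligand of CXCR4, was 40.7, 45.8 and 48.4 FPKM in WT 1, 2 and 3 and 38.7, 35.9 and 30.2 FPKM in Apelin-KO 1, 2 and 3. All WT values were above all Apelin-KO values, and the log2 fold change came to 0.36 (standard error 0.13, unadjusted p = 0.0266, adjusted p = 0.509 in limma). The unadjusted call was lost without WT 2, without WT 3 and without Apelin-KO 3, with p-values of 0.0694, 0.0845 and 0.0739 in limma. Cx3cl1, which ECs are known to make, averaged 12.1 ± 0.801 FPKM for WT and 12.1 ± 2.19 FPKM for Apelin-KO (SD, n = 3 each), with a 95% interval of the log2 fold change from -0.33 to 0.34. Its 6 values lay between 9.94 and 14.3 FPKM, a narrower range than that of its receptor.

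None of 8 further chemokine receptors reached a mean of 1 FPKM, and Ccr6, Cxcr1 and Cxcr2 were listed at 0 in all samples. The atypical receptors, which bind chemokines without G-protein signalling and clear or hold them, differed widely in level, with Ackr4 at a mean of 0.0373 FPKM over the 6 samples and at 0 in 3 of them. Ackr3, which binds CXCL12 and is known from ECs, averaged 182 ± 31.7 FPKM for WT and 182 ± 9.73 FPKM for Apelin-KO (SD, n = 3 each), and Cxcr4 was between 0.236 and 0.415 of it in each sample. Ackr2 was 67.8 and 58.6 FPKM, Ackr1, a receptor of venular ECs, was 21.4 and 20.7 FPKM, and Ccrl2 was 16.2 and 15.9 FPKM in WT and Apelin-KO ECs. Of the 5 atypical receptors, 4 entered the test, and none passed an unadjusted p-value of 0.05, with log2 fold changes from -0.07 to 0.17.

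Of 16 genes that act below chemokine receptors, 14 entered the test. At an unadjusted p-value under 0.05, Rac2, a GTPase of hematopoietic cells, was higher in the WT libraries and Gnb2, a G-protein beta subunit, was lower, and none passed at an adjusted p-value (limma). Over all genes 5.17% were higher and 4.25% lower in WT, so that 1 of 14 in each direction is near the share of all genes. Rac2 was 2.96 FPKM in WT ECs and 0.701 FPKM in Apelin-KO ECs. Gnai2, the inhibitory G-protein subunit through which these receptors signal, was at 733 FPKM in WT ECs and 830 FPKM in Apelin-KO ECs on average, with an adjusted p-value of 0.664.

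**Figure D4:**
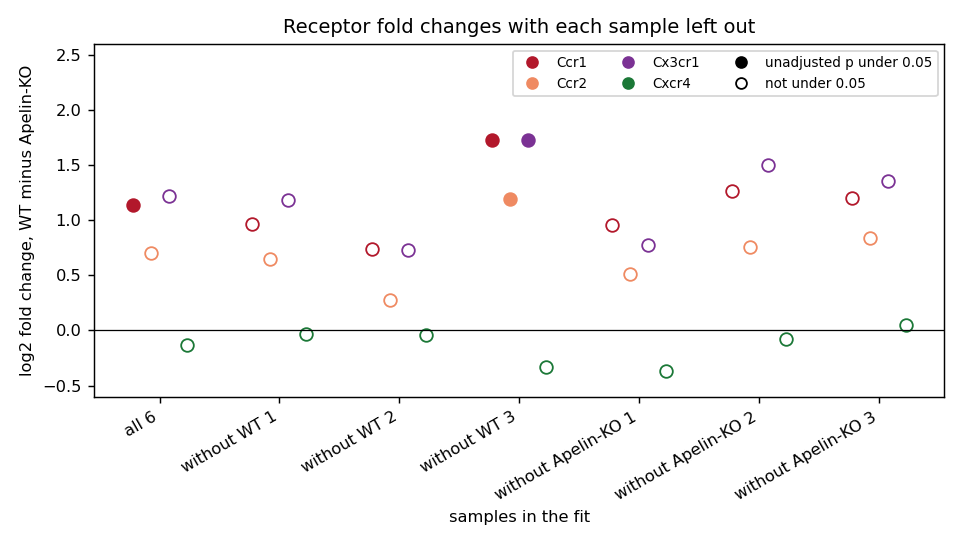
Log2 fold change of Ccr1, Ccr2, Cx3cr1 and Cxcr4 (WT minus Apelin-KO) in the fit of all 6 samples and in fits that leave out 1 sample. Filled circles have an unadjusted p-value under 0.05 and open circles do not. Ccr1, Ccr2 and Cx3cr1 are highest without WT 3, at 1.73, 1.19 and 1.73, and Cxcr4 stays between -0.37 and 0.05.

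The unadjusted calls moved with the libraries included. That of Ccr1 held without WT 3 and was lost without any 1 of the other 5 samples, while Ccr2 and Cx3cr1 passed without WT 3 alone. Without WT 3, Ccr1, Ccr2 and Cx3cr1 had log2 fold changes of 1.73, 1.19 and 1.73, all 3 were higher in both remaining WT samples than in every Apelin-KO sample, and all 3 had an unadjusted p-value under 0.05. In that fit 11.2% of all genes passed this p-value and 14.2% of all genes lay above in every WT sample. The adjusted p-values were then 0.107 for Ccr1, 0.201 for Ccr2 and 0.246 for Cx3cr1 in limma. Without any 1 of the other 5 samples, none of the 4 receptors fitted passed an unadjusted p-value of 0.05, and the receptors under 1 FPKM were not fitted with a sample left out. The lowest log2 fold changes of Ccr1, Ccr2 and Cx3cr1 came without WT 2, at 0.74, 0.28 and 0.73. Cxcr4 was at -0.37 without Apelin-KO 1 and at 0.05 without Apelin-KO 3.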

How the data were processed

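RNA of sorted tumor ECs was sequenced in 3 WT and 3 Apelin-KO samples. The authors prepared stranded mRNA libraries, sequenced 75-base single ends, mapped the reads to mm10 and computed FPKM. The submitters' processing notes list TopHat2 2.1.1, Bowtie2 2.2.4, SAMtools 1.0 and Cufflinks 2.2.1, and the study's methods name other versions of the first 3. The annotation, strand setting and filters are not given in the sources used here. FPKM as deposited, with no read counts, came as 1 value for each gene symbol.

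Values were used as deposited. Genes whose mean reached 1 FPKM were compared on log2(FPKM + 1) with limma 3.58.1 in R 4.3.3 (two-sided moderated test, no trend, no block, Benjamini-Hochberg over 10964 genes), and single genes with an exact permutation test of the 20 divisions of the samples. Receptors under 1 FPKM were fitted without the filter. The comparison was tested on simulated data.

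Depth was estimated as the smallest at which low FPKM of 3745 genes with a single transcript longer than 700 bases lay closest to whole reads, assuming 200-base fragments. Between 68.38% and 72.16% of low values lay within 0.1 of a whole read, where chance gives 20%. Estimated reads use the longest GENCODE M21 transcript. Intervals cover the spread between samples only.

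The receptors, lists, rules and tests were chosen with earlier results of these data known. Named are the 9 receptors, ligands and markers by list, Apln, and for each tested receptor the 2 most correlated genes. The motifs, and the promoters shown, were chosen after the values were seen. Protein sequences were not analysed here. Alternatives changed the pseudocount, filter, scaling, variance, block, covariate and samples. Tables and plots were made in Python 3.11.15.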

Additional observations from a re-analysis of the deposited data

How the results depend on the processing

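No receptor had an adjusted p-value under 0.05 in any fit run. The 1 unadjusted call at 0.05, that of Ccr1, became 0 calls with a pseudocount of 0.1 or 0.01, a filter at a mean of 5 FPKM (under which 1 receptor, Cxcr4, was tested), quantile normalization, each gene's own variance and the pan-leukocyte score as a covariate, and the count ranged from 0 to 3 when 1 sample was left out. The count more than 2-fold higher was the same in each of these settings, and 0 without the filter, where Ccr1 lost and Cxcr6 gained the unadjusted call. The count above in every WT sample was 0, then 1 without the filter (Cxcr6), and ranged from 0 to 3 with a sample left out. The count of ligands was 7, fell to 2 with each gene's own variance and to 1 with the covariate, and ranged from 2 to 9 with a sample left out. All genes called went from 1033 to 783 with own variance and to 346 with the covariate.

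With the covariate the log2 fold change turned to -0.14 for Ccr1, -0.44 for Ccr2, -0.35 for Cx3cr1 and -0.07 for Cxcl16. None of these had an unadjusted p-value under 0.05 in that limma fit. The log2 fold change of Ccl8 went from 1.56 to 0.79 and lost its unadjusted call, which it also lost with its own variance (adjusted p = 0.674). The fold change of Cxcr4 ranged from -0.37 to 0.05 with a sample left out, and turned to 0.05 without Apelin-KO 3. The cause was not tested.

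With the replicate number as a block, 2 receptors in place of 1 passed an unadjusted p-value of 0.05 and were more than 2-fold higher, Ccr1 and Cx3cr1. Of all 10964 genes, 893 and 88 did so in that fit. Cxcl12 lost its unadjusted call (adjusted p = 0.628 in limma). The numbers come from the sample labels. Deviations of same-numbered samples correlated at -0.14, 0.21 and -0.02, so the numbers were not read as pairs.

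Receptors under 1 FPKM rest on at most 11.0 estimated reads in a sample, which limits what depth can show for them.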
